A study of Mus musculus with 2 samples.

Results

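The SOCS, PIM and cytokine feedback genes are 10 genes whose products limit or relay signals from cytokine receptors: Cish, Socs1, Socs2, Socs3, Pim1, Pim2, Pim3, Sh2b3, Ptpn6 and Osm. They were followed on short-oligonucleotide arrays through every probe set whose only annotated gene was 1 of the 10, which gave 22 of 45037 probe sets that were not array controls, and 10 of 18193 genes. The treated culture was of G1E cells, GATA-1-null mouse progenitors of the red cell lineage kept as a line, given 1 µM estradiol for 24 h. It was set against the same cells taken at 0 h, before estradiol. Both cultures carried ER-GATA-1(V205G), an estrogen receptor fusion of a GATA-1 mutant defective in binding the cofactor FOG-1, which estradiol activates. Each condition had 1 array, all from 1 cell line. The culture medium with its cytokines and the promoter of the transgene are not given in the sources used here, and a vehicle control or treated cells without the fusion were not analysed here. A response to the mutant protein, to the hormone or to a day of growth cannot be told apart here.

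Cytokine receptors of the blood lineages lack a kinase of their own and signal through bound JAK kinases, which phosphorylate STAT factors that then enter the nucleus. STAT5, the main factor downstream of the erythropoietin and interleukin-3 receptors, induces genes such as Cish, Pim1 and Osm, and some of their products act back on the receptor. CIS and the SOCS proteins bind phosphorylated receptors or JAK kinases and recruit a ubiquitin ligase, LNK (Sh2b3) and SHP-1 (Ptpn6) restrain JAK2 and receptor signalling, and PIM kinases promote survival and protein synthesis. In erythroid cells, loss of some of these negative regulators is known to sharpen the response to erythropoietin.

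The proximal promoters of the feedback genes are shown where they hold the letters that STAT factors are known to prefer, TTCNNNGAA. The list joins genes that STAT factors induce with negative regulators, so not every member was listed as a STAT-induced gene. RefSeq promoter windows on GRCm38.p6, 250 bases before and 50 after an annotated start, matched 8 of the 10 members. Socs2 and Osm had no entry. Windows of 2 members, Cish and Socs3, held TTCNNNGAA, a pattern that reads the same on both strands. The Cish window lies at chr9:107296409-107296708 on the plus strand and the Socs3 window at chr11:117969317-117969616 on the minus strand. Capitals mark TTCNNNGAA and, in Cish only, GATAA, the core of a GATA site, searched on both strands.
Cish: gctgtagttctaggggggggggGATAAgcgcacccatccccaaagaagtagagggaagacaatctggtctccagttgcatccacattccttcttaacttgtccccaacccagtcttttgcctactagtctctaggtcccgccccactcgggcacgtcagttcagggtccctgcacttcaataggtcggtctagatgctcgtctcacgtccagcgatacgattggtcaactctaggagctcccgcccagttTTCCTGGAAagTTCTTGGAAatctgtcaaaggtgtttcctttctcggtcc
Socs3: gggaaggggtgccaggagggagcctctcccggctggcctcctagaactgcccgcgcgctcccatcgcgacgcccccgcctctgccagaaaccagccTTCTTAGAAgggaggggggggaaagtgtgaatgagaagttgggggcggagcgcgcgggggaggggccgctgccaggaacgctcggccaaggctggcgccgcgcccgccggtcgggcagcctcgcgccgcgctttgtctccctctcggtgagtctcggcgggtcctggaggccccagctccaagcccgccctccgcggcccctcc
Cish held 2 matches to TTCNNNGAA, the first beginning at the annotated start and the second 11 bases after it, and GATAA beginning 228 bases before the start. Socs3 held 1 match, beginning 154 bases before its start. No match to one motif overlapped a match to the other. Over all 32851 promoter windows of the same length, 8.30% held TTCNNNGAA, 0.457% held more than 1, 25.4% held GATAA and 2.46% held both motifs. The windows of Socs1, Pim1, Pim2, Pim3, Sh2b3 and Ptpn6 held neither, which says only that these letters are not in these windows.

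Signals were scaled to a common trimmed mean on both arrays, and a probe set counted as measured where both arrays reached a floor of 95.2, the median signal of all probe sets. At or above it were 50.9% of probe sets after estradiol and 49.2% without. The log2 ratio is estradiol over untreated, and a gene took the ratio of its brightest probe set. With 1 array a condition there was no p-value, and no spread between cultures could be had. In place of it, ratios were read against the SD between probe sets of the same gene, 0.25 on the log2 scale over 12514 probe sets of 4586 genes. This SD covers probe noise and transcript forms, not cultures. A limit of 2 SD came to 0.60, 0.50 and 0.40 for genes in the low, middle and high tertile of signal. All 12 genes listed as erythroid progenitor markers, among them Epor, Klf1, Tal1 and Gfi1b, were measured on both arrays. Of the markers of other lineages, 2 of 14 neutrophil and monocyte, 5 of 10 megakaryocyte and 3 of 10 lymphoid genes on the array were measured, as were 6 of 12 mast cell genes. The brightest mast cell genes on the untreated array were Cpa3 (6616) and Gzmb (4260), and the dimmest gene of the erythroid list there was Alas2 (283). Alas2 read 3430 after estradiol, a log2 ratio of 3.60. Of the 12 erythroid genes, 7 had a log2 ratio above 0 and 5 below. The summed untreated signal was 57280 for the erythroid list and 13697 for the mast cell list. These sums add signals of different probe sets and do not measure the share of either lineage.

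All 10 feedback genes were measured, and none differed by 2-fold. The number at least 2-fold higher was 0, where 2.04% of all 10240 measured genes were, and the number at least 2-fold lower was 0, where 1.10% of all genes were. Cish, Socs1, Socs2, Pim1 and Pim3 lay above 0, and Socs3, Pim2, Sh2b3, Ptpn6 and Osm below, 5 of 10 each way. Of all measured genes 50.1% lay above 0 and 49.9% below. The median log2 ratio of the members was 0.00, the same as the median of all measured genes. It falls midway between Pim3 (0.20) and Sh2b3 (-0.20), and no member lay close to it. Only Cish and Socs3 passed the limit of 2 SD for their signal, 1 in each direction, where 8.62% of all genes were past it upward and 7.23% downward. That share is near the background and says nothing particular about the members. In these bulk samples, fewer cells of a type and less RNA per cell cannot be told apart for any of them.

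**Figure D1:**
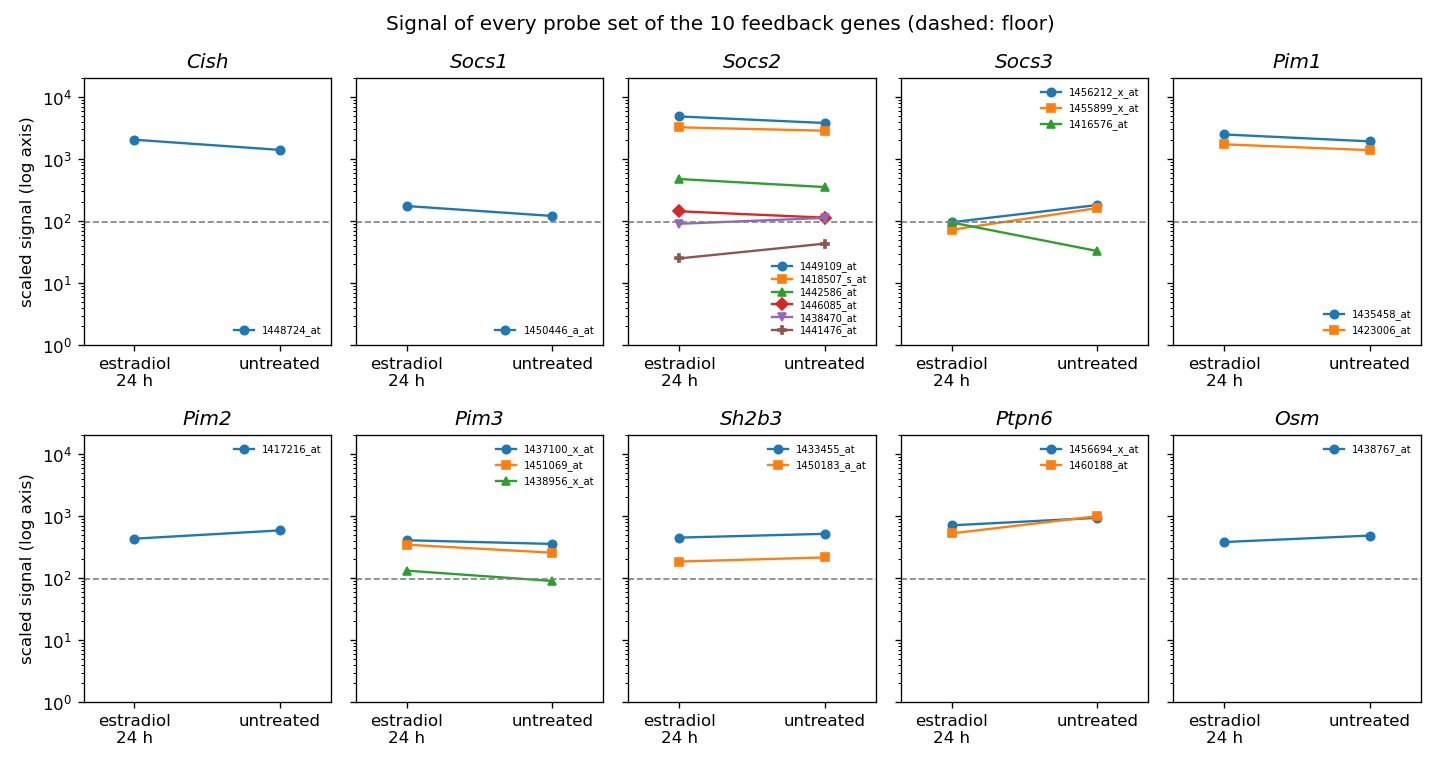
Scaled signal (log axis) of all 22 probe sets of the 10 feedback genes, with the estradiol array at the left and the untreated array at the right of each panel, 1 line per probe set. The dashed line is the floor of 95.2, and the 3 lines of Socs3 do not run the same way.

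The genes of CIS and the SOCS proteins gave the highest and the lowest ratio of the 10. Cish, which encodes the STAT5-induced inhibitor CIS that docks on phosphorylated receptors, had a signal of 2052 after estradiol, against 1406 without. It was 1.46-fold higher, a log2 ratio of 0.55 against a limit of 0.40, on its only probe set, 1448724_at. Of all measured genes 8.15% had a higher ratio, and 10.3% of the 3642 genes in its tertile of signal lay at least as far from 0 in either direction. The Cish ratio was thus above probe noise but common among all genes.

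Socs1 encodes a direct inhibitor of JAK kinases. Its probe set read 175 after estradiol and 121 untreated, a log2 ratio of 0.53. This dim gene had nearly the same ratio as Cish but stayed within its limit of 0.60. Its value lies 1.44-fold above untreated, and a floor at the 70th percentile would leave it unmeasured.

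Socs2, best known as the brake on growth hormone signalling, had 6 probe sets. The brightest read 4868 after estradiol and 3820 untreated, a log2 ratio of 0.35, just inside the limit of 0.40. The next, 1418507_s_at, read 3252 after estradiol and 2871 untreated, a log2 ratio of 0.18. All 4 measured probe sets of Socs2 lay above 0, between 0.18 and 0.43. The dimmest 2 ran the other way near or below the floor. The probe set 1438470_at read 90.5 after estradiol and 112 untreated, and 1441476_at read 25.0 after estradiol and 43.3 untreated.

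Socs3, which encodes an inhibitor of receptors that signal through gp130 and a known brake on erythropoietin signalling, had probe sets that disagreed. The brightest, 1456212_x_at, read 95.9 after estradiol, barely above the floor, and 181 untreated, 1.89-fold lower with a log2 ratio of -0.92. Its ratio was among the lowest of the array: 1.43% of measured genes had a lower one. Of the 4194 genes in its tertile of signal, 3.55% lay at least as far from 0 in either direction. A further set, 1455899_x_at, read 72.5 after estradiol, below the floor, and 162 untreated, at least 1.70-fold lower. The third set, 1416576_at, annotated with the RefSeq transcript NM_007707, read 94.9 after estradiol and 32.9 untreated. Both of these lie below the floor, so no ratio was formed, but with a floor at the 30th percentile (31.7) this set was 2.88-fold higher, a log2 ratio of 1.53, and the second was 2.23-fold lower. In Affymetrix's naming, an _x_at set holds probes that can also match other transcripts. The direction of Socs3 therefore depended on the probe set taken, and which of them reads Socs3 transcript alone was not tested.

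**Figure D2:**
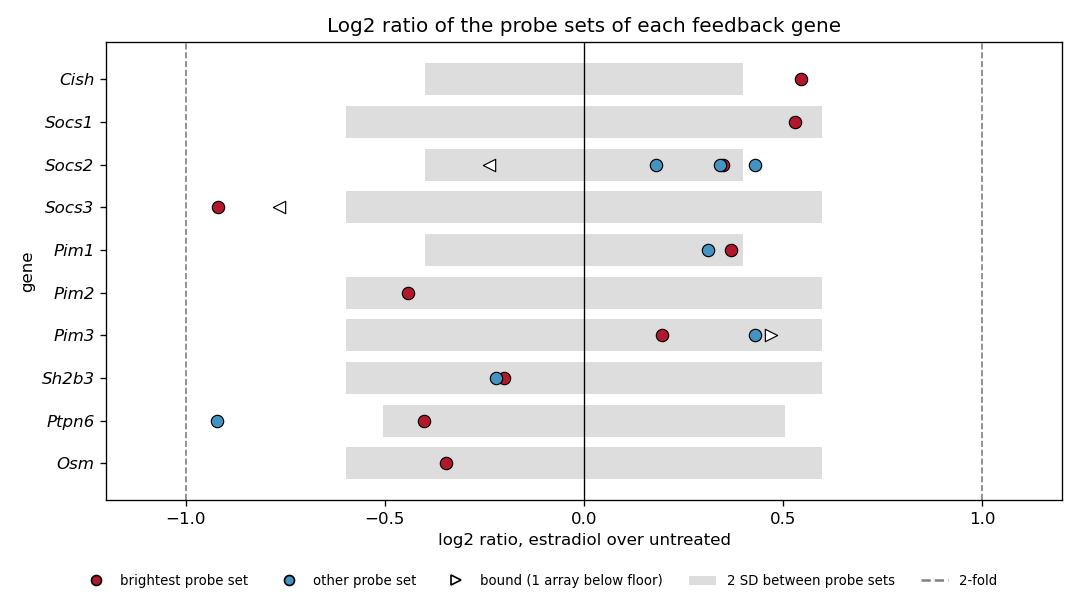
Log2 ratio of estradiol over untreated for the measured and bounded probe sets of each feedback gene; red marks the brightest set of a gene, blue the others, and open triangles sets with 1 array below the floor. Grey bars span 2 SD between probe sets of a gene at the signal of the brightest set and dashed lines mark 2-fold: Cish (0.55) and Socs3 (-0.92) are the only red points outside their bar.

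The PIM kinase genes went both ways, all within the limit. Pim1, a STAT5-induced serine/threonine kinase, read 2495 after estradiol and 1931 untreated on its brightest probe set, a log2 ratio of 0.37 against a limit of 0.40. Its other set read 1729 after estradiol and 1394 untreated, a log2 ratio of 0.31, so both sets of Pim1 pointed upward by a similar amount. Pim2, a relative of Pim1 with overlapping substrates, read 432 after estradiol and 587 untreated on its only set, 1.36-fold lower with a log2 ratio of -0.44. Pim3 read 407 after estradiol and 355 untreated on its brightest set, a log2 ratio of 0.20. The other sets of Pim3 lay higher, with 345 after estradiol and 257 untreated (0.43) on 1451069_at, and 132 after estradiol against 89.8 untreated on 1438956_x_at, at least 1.38-fold higher. Pim1 and Pim3 were thus above 0 on each of their sets, and Pim2 below, with no gene's ratio past 2 SD between probe sets.

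The adaptor and the phosphatase were both lower. Sh2b3 encodes LNK, an adaptor that binds JAK2 and KIT and restrains their signals. It read 450 after estradiol and 517 untreated, a log2 ratio of -0.20, with -0.22 on its other set, which read 185 after estradiol and 215 untreated. These 2 sets gave nearly the same small difference, well inside the limit of 0.60. Ptpn6 encodes SHP-1, a tyrosine phosphatase that binds the activated erythropoietin receptor and switches off JAK2. Its brightest set, 1456694_x_at, read 709 after estradiol and 937 untreated, a log2 ratio of -0.40 against a limit of 0.50. The other, 1460188_at, annotated with NM_013545, read 526 after estradiol and 997 untreated, 1.89-fold lower with a log2 ratio of -0.92. Both sets of Ptpn6 were lower, but only the second passed the limit, and their mean signals were close enough (823 and 761) that the choice of the brightest set decides the value of the gene.

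Osm encodes oncostatin M, a secreted cytokine of the interleukin-6 family that STAT5 induces in blood cells. Its only probe set read 381 after estradiol and 485 untreated, 1.27-fold lower with a log2 ratio of -0.35, inside the limit of 0.60. Of the 3 members named above as genes that STAT5 induces, Cish and Pim1 lay above 0 and Osm below. Only Cish was past its limit. That limit does not cover cultures, and with 1 array a condition none of these 3 directions can be read firmly. Markers of mast cells and basophils moved both ways between the same arrays: of 6 measured, 3 lay above 0 and 3 below. Tpsab1 had a log2 ratio of 4.61, Mcpt2 0.52 and Cma1 0.19, whereas Gzmb had -3.11, Cpa3 -2.53 and Ms4a2 -1.40. Hdc was bounded upward (0.67), as was Tpsb2 (0.08), Fcer1a was bounded downward (-0.60), and Mcpt1, Mcpt4 and Mcpt8 were below the floor on both arrays. The summed signal of these 12 markers was 6653 after estradiol and 13697 untreated. Their part in the signals of the feedback genes was not tested.

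**Figure D3:**
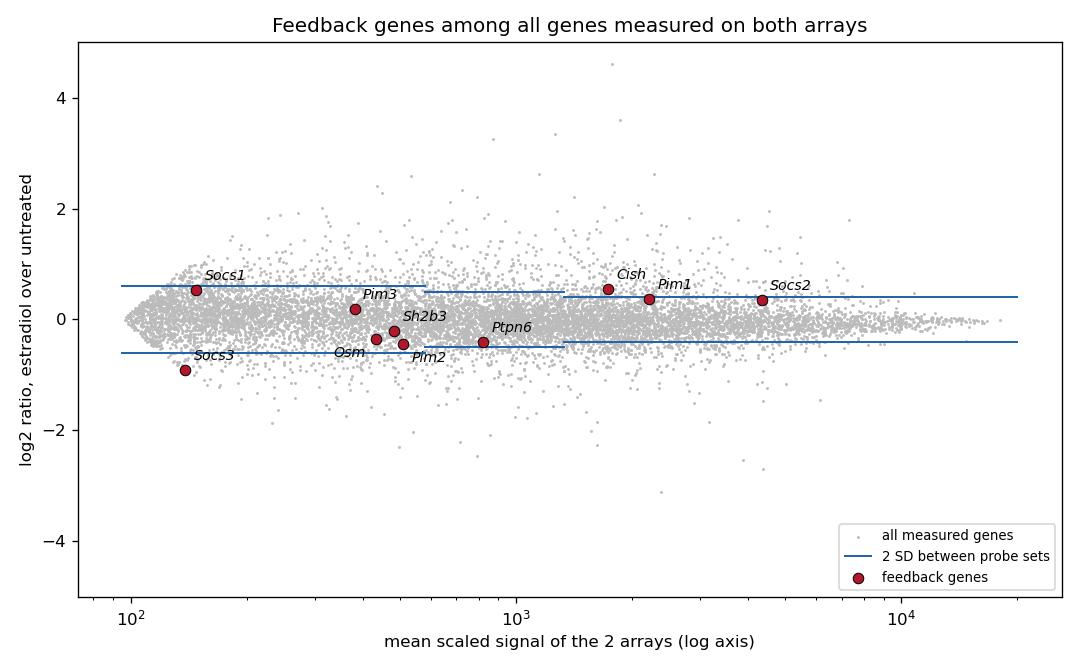
Log2 ratio of estradiol over untreated against mean scaled signal (log axis) for all 10240 measured genes (grey) and the 10 feedback genes (red), with blue lines at 2 SD between probe sets in each tertile of signal. The members lie inside the cloud of all genes, with Cish (0.55) above and Socs3 (-0.92) below the blue lines.

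Against all measured genes, pooled over signal, Socs3 lay the farthest out of the members. The central 50% of genes, between the 25th and 75th percentile, had log2 ratios from -0.20 to 0.22. Of the 10 members only Pim3 (0.20) lay within that range. Sh2b3 (-0.202) lay just below its lower end (-0.197). That range takes no account of signal, and the limit of 2 SD is wider for dim genes. Within their own tertile of signal, 57.1% of genes lay at least as far from 0 as Sh2b3 and 58.1% as Pim3. For the other members this share ran from 3.55% (Socs3) to 34.5% (Osm). A higher ratio than that of Socs1 was found in 8.55% of measured genes, than that of Pim1 in 14.9%, than that of Socs2 in 15.97% and than that of Pim3 in 27.2%. A lower ratio than that of Socs3 was found in 1.43%, than that of Pim2 in 8.63%, than that of Ptpn6 in 10.4%, than that of Osm in 13.2% and than that of Sh2b3 in 24.5%. At 1.5-fold, 1 of 10 members would be counted lower (Socs3) and 0 higher, where 4.85% of all genes were lower and 7.11% higher.

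Among the other genes of the SOCS machinery differences were small on the brightest probe sets. None of the 8 measured genes of the remaining SOCS proteins and their ubiquitin ligase partners was 2-fold different or past 2 SD on its brightest set, and their median was 0.01. The highest were Eloc, the elongin C gene whose product binds the SOCS box (8759 after estradiol, 7132 untreated, log2 ratio 0.30, and up to 0.82 over its 4 sets), and Rnf7, a RING subunit gene of such ligases (0.10). The lowest were Socs5 at -0.24 and Socs4 at -0.16, whose probe sets ranged from -0.16 to 0.50. Of 16 measured genes of other negative regulators none passed 2-fold, and their median was 0.03. Past 2 SD were 1 upward and 0 downward, where 8.62% and 7.23% of all genes were. The gene past it was Stam, which encodes an adaptor in receptor sorting. It read 987 after estradiol and 673 untreated (0.55), with up to 0.86 on another set. Inpp5d, the SHIP-1 phosphatase gene, followed at 0.37, while the adaptor gene Dok2 (-0.45) and the ubiquitin ligase gene Cblb (-0.36) were lowest.

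The receptor and JAK-STAT lists had medians of -0.15 and 0.10, and a few of their genes lay far from 0. Of 8 measured receptor genes 2 were higher by 2-fold or more and 1 lower, where 2.04% and 1.10% of all genes were, and 5 receptor genes were below the floor on both arrays. Csf2rb, the shared beta chain of the interleukin-3 and GM-CSF receptors that signals through JAK2 and STAT5, had a log2 ratio of 1.80 and its close copy Csf2rb2 1.68, although the probes of these copies may cross-read. Il4ra, a receptor gene that signals through JAK1 and STAT6, was at -1.57, Ifngr2 at -0.58 (0.02 on its other set) and Epor at -0.13. Of 9 measured JAK and STAT genes, Stat5a was the only one past 2-fold, at -1.25 on its brightest set and -1.11 on the other. Its near-duplicate Stat5b lay at 0.46 and 0.60, past its limit in the opposite direction. Jak1 was at 0.90 and Stat3 at 0.59 (-0.14 on its lowest set), both past 2 SD, while Jak2 was at 0.18 and Jak3 at -0.55 within it. Past 2 SD among these 9 were 3 upward (Jak1, Stat3, Stat5b) and 1 downward (Stat5a), where 8.62% and 7.23% of all genes were.

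**Figure D4:**
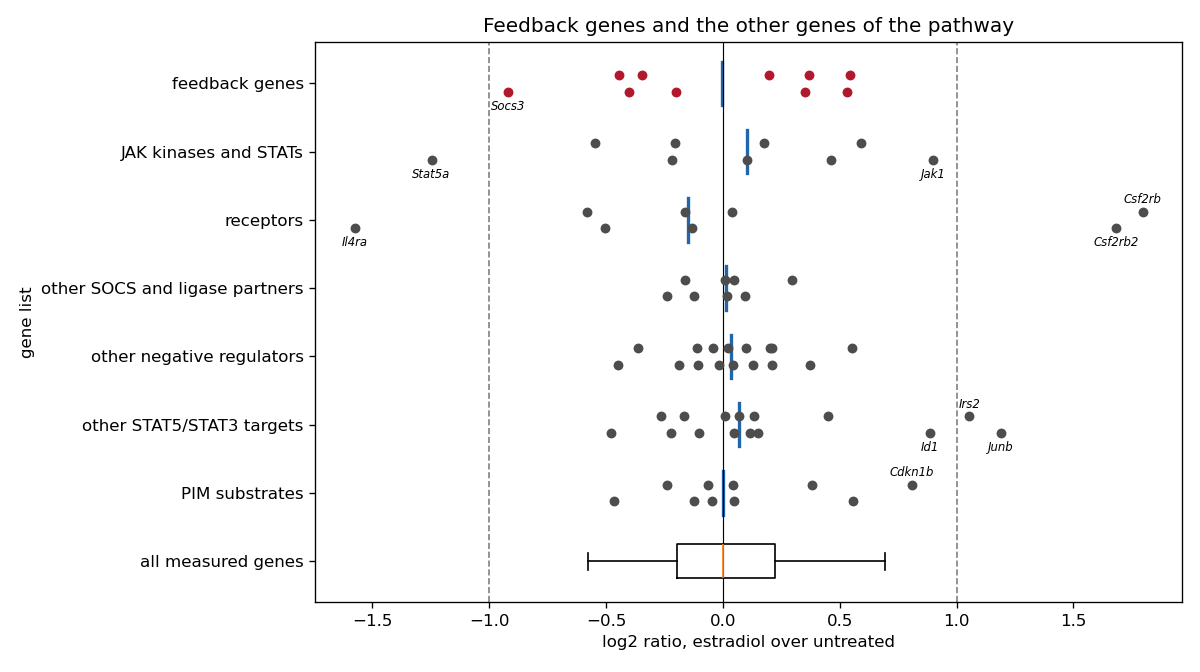
Log2 ratio of estradiol over untreated for the measured genes of each list, 1 point per gene, with a blue bar at the list median and dashed lines at 2-fold. The lowest row gives all measured genes as a box from the 25th to the 75th percentile with whiskers at the 5th and 95th. No feedback gene (red) crosses 2-fold, whereas Stat5a, Il4ra, Csf2rb, Csf2rb2, Irs2 and Junb do.

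Of 15 other measured genes that STAT5 or STAT3 induce, 10 lay above 0 and 5 below, with a median of 0.07. Past 2-fold were 2, both higher, where 2.04% of all genes were, and past 2 SD were 4 higher and 1 lower, where 8.62% and 7.23% of all genes were. Junb, an early-response factor gene, read 423 after estradiol and 185 untreated (2.28-fold, log2 ratio 1.19). Irs2, the gene of an insulin receptor adaptor, read 813 after estradiol and 392 untreated (2.08-fold, 1.05). Fos reached the floor on 1 array only, with 217 after estradiol and 81.8 untreated, at least 2.28-fold higher. Also past 2 SD upward, and named after their values were seen, were Id1, an inhibitor of helix-loop-helix factors, at 0.89 and Bcl2l1, the BCL-XL survival gene, at 0.45. The lowest were the cyclin gene Ccnd3 at -0.48, past 2 SD (but -0.25 on its other measured set), and Myc at -0.26. Junb, Irs2, Fos, Id1 and Myc each had 1 probe set, so no second set checks them.

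Genes of PIM kinase substrates had a median of 0.00, and none of 10 measured passed 2-fold. Cdkn1b, the gene of the cell cycle inhibitor p27, read 1063 after estradiol and 607 untreated, a log2 ratio of 0.81. Foxo3, a factor gene whose product PIM and AKT kinases inactivate, read 2253 after estradiol and 1529 untreated (0.56, from 0.34 to 1.05 over its sets). Both passed 2 SD upward, and 0 of the 10 passed it downward, where 8.62% and 7.23% of all genes did. The lowest were Bad, a death-promoting gene of the BCL2 family (-0.46, but 0.33 on its other set), and the transporter gene Abcg2 (-0.24). These are transcript levels of proteins that PIM kinases act on by phosphorylation, which the arrays do not measure.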

How the data were processed

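Total RNA of 2 cultures was labelled with biotin and hybridised to Affymetrix arrays, per the labels' protocols, and 45101 probe sets were deposited for each. The deposited values are linear signal intensities made with GCOS, per the submitters' processing notes. Both arrays had a trimmed mean of 500.0 with 2% taken off each end. The settings and version of GCOS are not given in the sources used here.

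From these intensities, signals of the 45037 probe sets that were not controls were rescaled to 1 trimmed mean (factors 1.00006 for estradiol and 0.999941 for untreated). The floor was the 50th percentile over both arrays. Where 1 array was below it, the floor took its place and the ratio is a bound. Genes were named by the platform annotation, in which 34945 probe sets had 1 symbol, 932 several and 9160 none. With 1 array a group no test was run, and the number of arrays limits the precision. The steps were tested on simulated data with noise set at the SD between probe sets. That check held no variation between cultures. Members, lists and the rule for named genes (all members, and in other lists genes past 2-fold, the 2 highest and 2 lowest, and Jak2, Stat5a, Stat5b, Epor, Csf2rb and Myc) were chosen with earlier results of these data known. Alternatives covered scaling, floor, probe set choice and thresholds. The software was Python 3.11.15 with pandas 2.3.3, numpy 2.4.6, matplotlib 3.10.9 and statsmodels 0.14.6.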

Additional observations from a re-analysis of the deposited data

How the results depend on the processing

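No paired analysis was possible because each condition had 1 array. No member changed sign under any alternative that gave it a value. For Socs3 this was not a full check, because no alternative gave it a value from 1416576_at alone. That set had a log2 ratio of 1.53 with the floor at the 30th percentile. A common median in place of the trimmed mean moved the median log2 ratio of all genes to -0.11 and lowered the members measured on both arrays by as much, and split the genes past 2-fold into 160 higher and 161 lower, against 209 and 113. Those counts were 439 and 288 with the floor at the 30th percentile, 130 and 65 at the 70th, 679 and 512 with no floor and 16 added, 728 and 497 at 1.5-fold and 49 and 21 at 3-fold. The members past the threshold stayed at 0 in each direction except at 1.5-fold, where 1 (Socs3) was lower. Under a common median, quantile normalization and loess the estradiol signal of Socs3 lay below the floor, so that it left the count with bounds of -0.99, -0.98 and -0.99, just short of 2-fold, and the 0 lower does not include it. The members' median, over the 9 still measured, was 0.08 under a common median and 0.14 under both quantile normalization and loess. It was 0.28 with signals averaged over probe sets and 0.35 without _x_at probe sets, an alternative chosen after seeing the data. In these last 2 as well, Socs3 had no ratio measured on both arrays, and the middle of the remaining 9 members is a single gene above 0. Averaged over its sets Socs3 had a bound of -0.40. Ptpn6 was at -0.66 as the median of its sets and -0.92 without _x_at sets. The other 8 members moved by less than 1 SD between probe sets, where a value could be had. At the 70th percentile floor Socs1 and Socs3 had no value: both are too dim for their ratios to be read firmly.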

Other observations

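The receptor side of oncostatin M was looked at after the values were seen. Osmr, which encodes a receptor subunit for it, was below the floor on both arrays, with 71.0 after estradiol and 51.8 untreated on its brightest probe set. Lifr, a related receptor gene, was below it as well, with 15.4 after estradiol and 22.0 untreated. Il6st, which encodes the shared subunit gp130, read 154 after estradiol and 76.6 untreated, below the floor, so it was at least 1.62-fold higher.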
